A study of Mus with 9 samples.

Results

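The cytosolic ribosomal proteins are the protein components of the ribosomes that translate nuclear-encoded mRNAs. Their genes were taken from the table of 54532 genes as those of the protein-coding class whose symbol was Rpl or Rps with a number and at most 1 further letter, or Rplp0, Rplp1, Rplp2 or Rpsa. This gave 80 genes, of which 46 encode proteins of the large subunit, 3 the acidic stalk of the large subunit and 31 the small subunit. They lie on 19 chromosomes. No measured value entered this choice.

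RNA of kidney was sequenced from 9 male C57BL/6 mice, 1 library per mouse and 3 mice per group. All mice had lost 1 kidney to unilateral nephrectomy at 18 months of age. Mice of the 18 mo group were culled when 1 week had passed since the operation. The 21 mo group then received saline intraperitoneally for 12 weeks, and the 21 mo/O304 group received O304, a small-molecule activator of AMP-activated protein kinase (AMPK), over the same 12 weeks and at a daily dose of 10 mg/kg. Mice of 18 mo thus differed from all older mice in age, time after nephrectomy and injection at once, and their shares in any difference cannot be told apart. The comparison of 21 mo/O304 with 21 mo asks what O304 changed in ageing kidneys that had the same surgery and the same injection schedule.

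A ribosome is assembled in the nucleolus from ribosomal RNA and about equal numbers of each ribosomal protein, and proteins made in excess of rRNA are degraded. The mRNAs of nearly all ribosomal proteins begin with a terminal oligopyrimidine (TOP) motif, through which the kinase complex mTORC1 and the RNA-binding protein Larp1 control their translation and stability, while Myc raises their transcription. AMPK restrains mTORC1. Some members act outside the ribosome, such as Rpl5 and Rpl11, which bind the p53 inhibitor Mdm2.

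Library size ranged from 15636378 to 18396725 gene counts. Libraries of the 21 mo group stood apart from each other, which touches every result on that group. Summed CPM, the counts relative to TMM-scaled library size, of 8 proximal tubule markers was 30060 to 37380 in 18 mo, 29610, 7736 and 1560 in 21 mo replicates 1, 2 and 3, and 35010 to 40590 in 21 mo/O304. Summed CPM of 7 macrophage markers was 267 to 451, then 684.5, 1087 and 3348, then 507 to 536 in the same order of groups. Summed CPM of 6 fibroblast markers was 160 to 243, then 130, 553 and 1308, then 100 to 239. None of these markers was at 0 in any library. Mitochondrially encoded genes held 6.59% of the counts of 21 mo replicate 3, and 8.95% to 11.6% of the other libraries. In tissue RNA, fewer cells of a type and less RNA per cell cannot be told apart.

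Together, the 80 genes held 2.61%, 2.30% and 2.49% of all gene counts in the 18 mo libraries. In 21 mo the share was 2.44%, 3.44% and 7.35%, and in 21 mo/O304 it was 2.29%, 2.33% and 2.56%. The means were 2.47% ± 0.158, 4.41% ± 2.59 and 2.40% ± 0.148 (SD, n = 3). Thus 21 mo replicate 1 lay within the range of the 18 mo mice, replicate 2 above it and replicate 3 far above it, while the 21 mo/O304 libraries stayed near the 18 mo level. Proximal tubule markers were low and fibroblast markers high in 21 mo replicates 2 and 3. Macrophage markers were above all 18 mo and 21 mo/O304 libraries in each 21 mo library, also in replicate 1, where the ribosomal protein share lay within the 18 mo range. Summed CPM of 5 plasma cell markers was 294 to 462 in 18 mo, 330.5, 399 and 1594 in 21 mo and 501, 1224 and 851 in 21 mo/O304. For adipocyte markers it was 0.123 to 4.75 in 18 mo, 1.14 to 2.57 in 21 mo and 70.8, 5.96 and 46.0 in 21 mo/O304, with up to 5 of the 6 adipocyte markers at 0 counts in an 18 mo library. The part of these cell types in the ribosomal protein share was not tested.

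**Figure D1:**
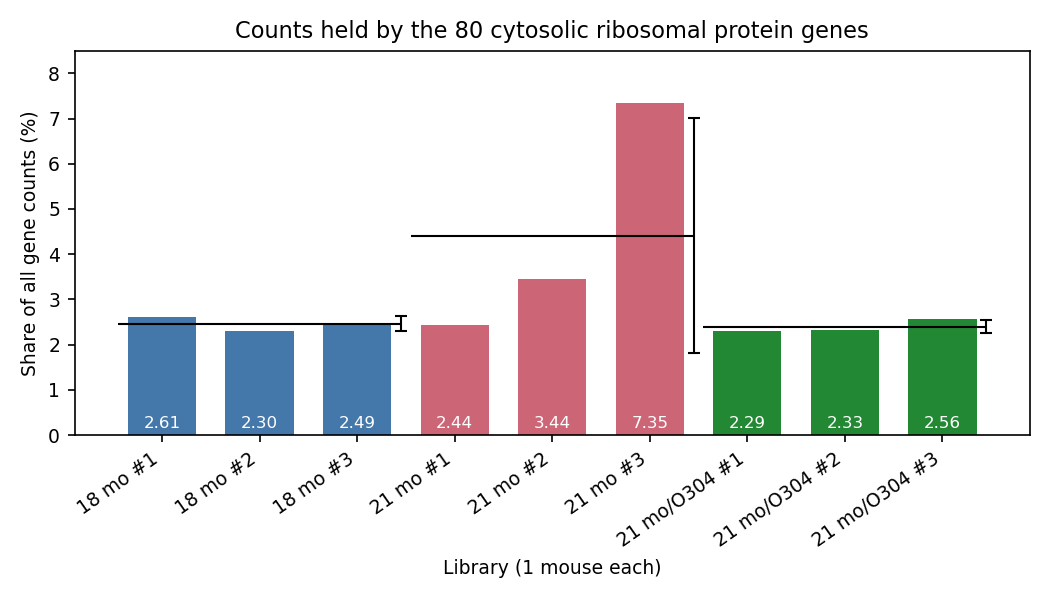
Share of all gene counts (%, y axis) held by the 80 cytosolic ribosomal protein genes in each of the 9 kidney libraries (x axis, 1 mouse each), with a horizontal line at the group mean and an error bar of 1 SD (n = 3). All other bars lie between 2.29% and 3.44%, while 21 mo replicate 3 reaches 7.35%.

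Levels per gene length (FPKM) differed widely between members. The median member had a mean FPKM of 179 over the 9 libraries, against 4.44 for the 13916 protein-coding genes tested, and 59 members were among the 500 genes of highest mean FPKM. Highest were Rplp1 (1408 FPKM) and Rplp0 (655 FPKM), which belong to the stalk that recruits elongation factors, with Rps15 (749 FPKM), Rpl41 (692 FPKM) and Rpl36 (674 FPKM). A total of 5 members had a mean FPKM under 10. Rpl10l and Rpl39l, copies of Rpl10 and Rpl39 known from the male germ line, had 0 counts in every library and were not tested. Rpl3l, the copy of Rpl3 known from heart and skeletal muscle, had a mean FPKM of 1.63, Rpl24 of 1.15 and Rps10 of 0.601. The next lowest were Rpl13a at 10.7 FPKM and Rpl21 at 21.5 FPKM. Rpl13a overlaps Gm45713, annotated as protein-coding, which had 0 counts in every library, and the origin of the low value of Rpl13a was not tested. The remaining 78 members all passed the filter on low counts, and 15902 genes were tested in all.

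Low values for Rps10 and Rpl24, which are core proteins of every ribosome, were measured in rows that overlap other annotated genes. Rps10 (chromosome 17, 27630418 to 27636669, GRCm38) overlaps Gm15420 and the annotated read-through gene RPS10-NUDT3, the latter with 0 counts in every library, and held 43, 22 and 39 counts in 18 mo, 8, 30 and 26 in 21 mo and 21, 14 and 19 in 21 mo/O304. A processed pseudogene named for it, Rps10-ps2 (chromosome 16, 20822145 to 20822640), held 1898 to 2279 counts in the 18 mo libraries, 2073, 3102 and 7287 in the 21 mo libraries and 1914 to 2165 in the 21 mo/O304 libraries. Over all libraries, Rps10 thus held 0.834% of the counts of itself and its 4 named copies. Rps10-ps2 was chosen after its values were seen, as was Rps27rt, described next. Rpl24 overlaps Gm28037, which had 0 counts in every library, and itself held 14 to 30 counts per library. The value of Rps10 is uncertain, since reads shared with near-identical copies or with overlapping genes may be counted elsewhere or not at all. The part of each was not tested. Rpl24 had no row named as its copy, and the origin of its low value was not tested.

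Of the 80 members, 56 had rows named as their copies, 293 rows in all, and these held 4.79% of the counts of members and copies together. For 2 members the copies held more than the gene. They were Rps10 and Rpl17, which held 33.4% of its family's counts. Rps12 held 69.6%, Rps27 79.1% and Rpl21 50.6%. For Rps27 the split between the gene and its protein-coding copy Rps27rt (chromosome 9, 114982366 to 114982739) varied within groups. In the 18 mo libraries Rps27 had 2002, 1566 and 3643 counts and Rps27rt 1651, 1731 and 319, while all rows named for Rps27 summed to 3653, 3297 and 3965. The sum varied less than either row.

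For ageing, 74 of the 78 tested members had a higher and 4 a lower fitted level in 21 mo than in 18 mo. The median log2 fold change of the members was 0.62, a fold of 1.54, against 0.03 for all genes tested. No member passed an adjusted p of 0.05 (edgeR quasi-likelihood test, Benjamini-Hochberg over all genes), and of all genes 0.0189% did. The smallest adjusted p of a member was 0.0801, that of Rpl23a. At an unadjusted p under 0.05, 33 members (42.3%) were higher, against 14% of all genes, and 1 member (1.28%) was lower, against 12% of all genes. All 3 libraries of 21 mo lay above all 3 of 18 mo for 33 members, against 13.5% of all genes, and below them for 1 member, against 15.3%.

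The count of 0 depended on single mice. Without 21 mo replicate 3 the median fell to 0.13 (all genes -0.0046), and 46 members were fitted higher and 32 lower. In that fit 1 member, Rps12, passed with an adjusted p of 0.0436, as did 0.806% of all genes. At an unadjusted p under 0.05, 24 members were then higher, against 10.02% of all genes, and 3 were lower, against 12.1%. Without 21 mo replicate 1, in contrast, 43 members (55.1%) passed the adjusted threshold, 42 of them higher, and so did 25.4% of all genes in that fit. Leaving out 18 mo replicate 2 gave 0 adjusted calls (0% of all genes). At an unadjusted p under 0.05, 15 members were then higher and 1 lower, against 8.52% and 7.91% of all genes. Without 18 mo replicate 3 there were 22 higher and 0 lower, against 11.3% and 7.92%. Without 21 mo replicate 1 there were 56 higher and 1 lower, against 21.4% and 18.7%. DESeq2 with all libraries called 20 members (25.6%), all higher, among 2059 genes in all, 7.29% of those it fitted.

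In 75 members the highest of the 9 libraries was 21 mo replicate 3, as in 28.9% of all genes tested. Measured against the 18 mo mean on the log2 CPM scale, the median member stood at 0.02, 0.27 and 1.27 in 21 mo replicates 1, 2 and 3. The number of members above the highest 18 mo library was 33, 46 and 75 of 78, against 31.1%, 37.3% and 41.3% of all genes. Members below the lowest 18 mo library numbered 28, 13 and 2, against 33.4%, 36.1% and 40.5% of all genes. Replicate 1 thus held members on both sides of the 18 mo range, in numbers close to the shares over all genes for the lower side and somewhat above them for the upper side, and replicate 3 held nearly all members above it.

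**Figure D2:**
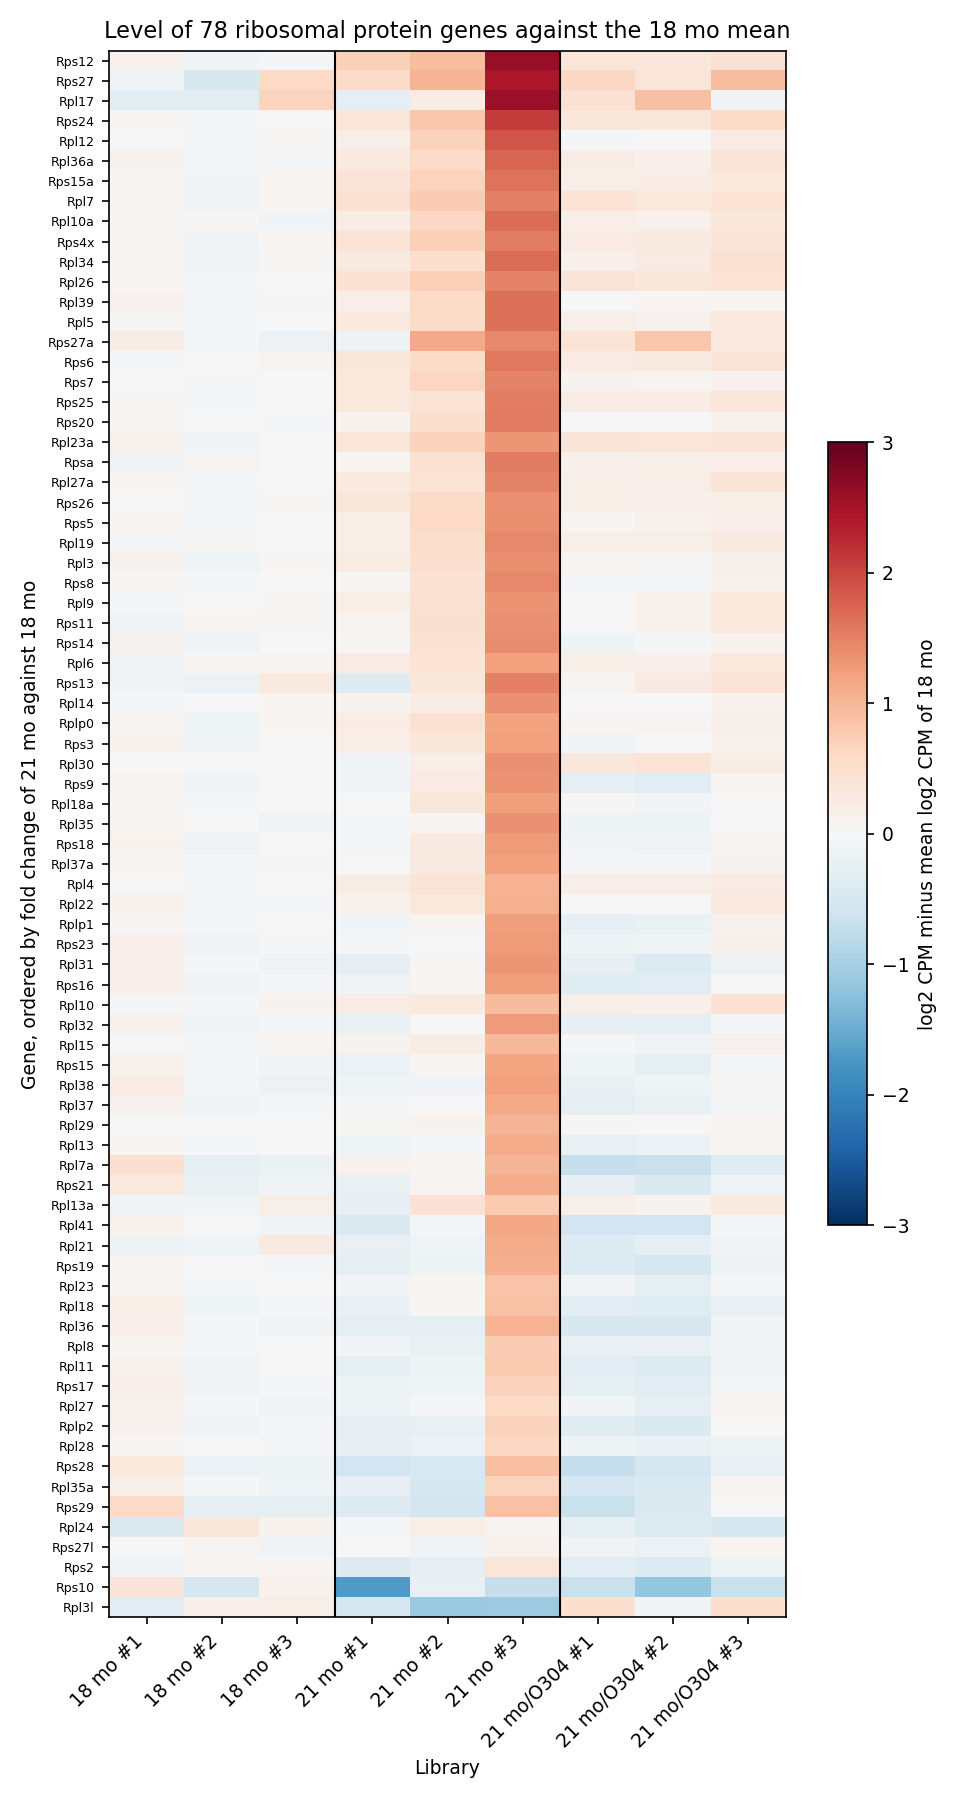
Level of the 78 tested members (rows, ordered by the fitted fold change of 21 mo against 18 mo) in the 9 libraries (columns), as log2 CPM minus the mean log2 CPM of the 18 mo group. The column of 21 mo replicate 3 is high in most rows, with 75 of 78 members above the highest 18 mo library, whereas 21 mo replicate 1 and the 21 mo/O304 columns are high in the upper rows and low in the lower rows. The row order itself uses the 21 mo and 18 mo libraries, so this gradient is in part fixed by the ordering.

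Rps12 (chromosome 10, 23785183 to 23787275), a protein of the small subunit, had the largest difference. Its CPM was 195, 169 and 172 in 18 mo, 294.5, 340 and 1096 in 21 mo and 229, 226 and 244 in 21 mo/O304. All 21 mo libraries lay above all others, and the O304 libraries lay between the 18 mo and the 21 mo libraries. The log2 fold change of 21 mo against 18 mo was 1.69 ± 0.449 (SE, adjusted p = 0.0816), and 0.81 ± 0.122 (adjusted p = 0.0436) without 21 mo replicate 3. With the counts of its copies added it was 1.59 (adjusted p = 0.0835).

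Rps27 (chromosome 3, 90212522 to 90213651) had CPM values of 124, 96.5 and 206 in 18 mo, 202, 274 and 721 in 21 mo and 206, 174 and 257 in 21 mo/O304. Here the groups overlapped, and the log2 fold change was 1.49 ± 0.475 (adjusted p = 0.103). With copies added, the 18 mo libraries came closer together, at 226, 203 and 224 CPM, below the 277, 348 and 804 CPM of 21 mo, and the log2 fold change was 1.13 ± 0.353 (adjusted p = 0.100). Rpl17, a protein near the exit tunnel of the large subunit, showed the same behaviour, with a log2 fold change of 1.35 ± 0.697 (adjusted p = 0.251) alone and 1.00 ± 0.309 (adjusted p = 0.0987) with copies. That of Rpl17 alone was -0.10 without 21 mo replicate 3.

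Rps24, mutated in some patients with Diamond-Blackfan anaemia, had 381, 360 and 372 CPM in 18 mo, 480, 653 and 1577 in 21 mo and 470, 472 and 551 in 21 mo/O304. Every library of the older mice exceeded every 18 mo library. Its log2 fold change was 1.28 ± 0.391 (adjusted p = 0.0977), and 0.59 without 21 mo replicate 3. Rpl12, part of the stalk base, followed with 1.09 ± 0.376 (adjusted p = 0.119), and 0.43 without that library. These 5 genes had the largest fitted increases.

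At the other end, Rpl3l (chromosome 17, 24727820 to 24736143) was the 1 member whose 21 mo libraries lay below all 18 mo libraries. It had 38, 53 and 59 counts in 18 mo, 30, 23 and 29 in 21 mo and 71, 47 and 67 in 21 mo/O304. On the CPM scale these were 2.35, 3.27 and 3.34, then 2.01, 1.31 and 1.33, then 4.13, 2.80 and 4.27. The log2 fold change was -0.95 ± 0.317 (adjusted p = 0.112), opposite in sign to that of its partner Rpl3, at 0.79 ± 0.289 (adjusted p = 0.133). That of Rpl3l was -0.87 without 21 mo replicate 3.

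The other members with lower fitted levels were Rps10, at -0.85 ± 0.463 (adjusted p = 0.274), Rps2, at -0.06 ± 0.233, and Rps27l, at -0.01 ± 0.133. Rps10 with its copies added had a log2 fold change of 0.78 ± 0.286 (adjusted p = 0.135), so its direction depended on which rows were counted. Rps27l, a p53-responsive copy of Rps27, ranged from 170 to 210 CPM over all 9 libraries, and its 3 groups overlapped. Rpl24 stood at 0.04 ± 0.331.

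**Figure D3:**
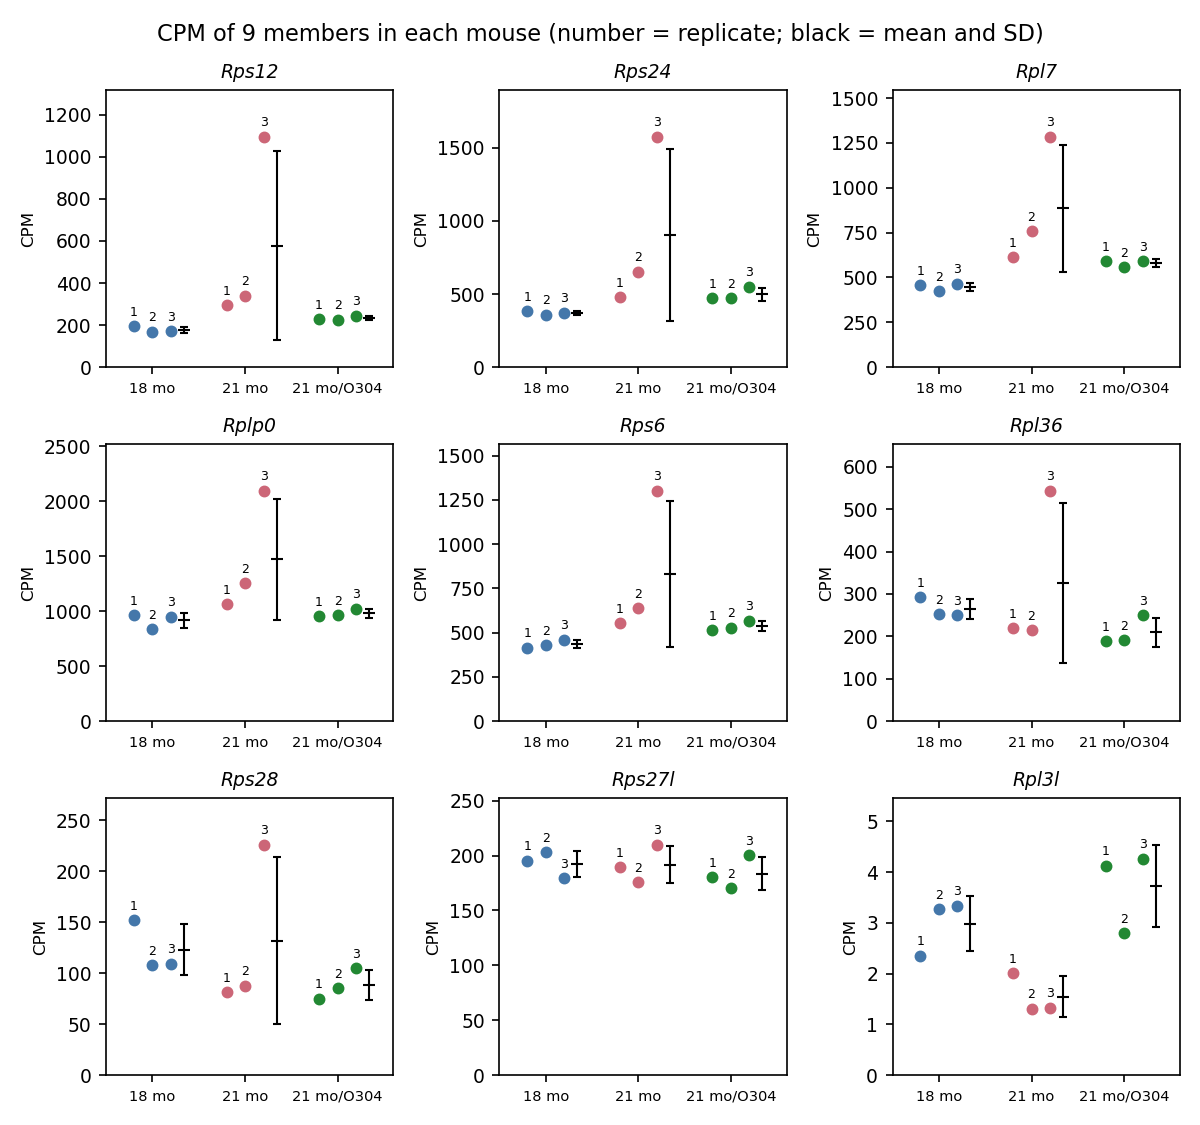
CPM (y axis, from 0) of 9 members in each mouse by group (x axis), with each point marked by its replicate number and the group mean ± SD (n = 3) in black beside it. Rps12, Rps24, Rpl7, Rplp0 and Rps6 are higher in all 21 mo mice than in 18 mo, with replicate 3 highest, Rpl36 and Rps28 exceed the 18 mo values only in replicate 3, Rps27l stays between 170 and 210 CPM, and Rpl3l is lowest in 21 mo.

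By role, the stalk proteins are given first. Rplp0, the stalk base often used as a reference gene in quantitative PCR, had 964, 836 and 951 CPM in 18 mo, 1066, 1253 and 2097 in 21 mo and 954, 962 and 1022 in 21 mo/O304. The 21 mo libraries lay above all others, with a log2 fold change of 0.68 ± 0.272 (adjusted p = 0.158), and 0.32 without 21 mo replicate 3. Rplp1 and Rplp2, which form dimers on it, had log2 fold changes of 0.55 and 0.13, which turned to -0.02 and -0.27 without that library.

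Among members with functions outside the ribosome, Rps6, the substrate of S6 kinase downstream of mTORC1, had a log2 fold change of 0.93 ± 0.306 (adjusted p = 0.110). Its CPM was 416 to 459 in 18 mo, 555, 636 and 1302 in 21 mo and 514 to 568 in 21 mo/O304, so all 6 older mice lay above the 18 mo mice. The difference between Rpl5 and Rpl11 was not tested. Rpl5 had a log2 fold change of 0.95 ± 0.327 (adjusted p = 0.119), and 0.41 without 21 mo replicate 3. For Rpl11 it was 0.20 ± 0.279 (adjusted p = 0.678), and -0.24 without it.

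Rps3, which also takes part in DNA repair, stood at 0.66, Rps14 at 0.74, Rps19, mutated in Diamond-Blackfan anaemia, at 0.36, and Rpl22 at 0.55. Rpl13a, a regulator of inflammatory mRNA translation, was at 0.39 and Rps27a, made as a fusion with ubiquitin, at 0.94. Rpsa, the laminin receptor precursor, was at 0.84 and the partners of the paralogs, Rpl10, Rpl39 and Rps4x, at 0.53, 0.95 and 0.96. None of these 10 passed the adjusted test. With 21 mo replicate 3 left out, Rps3 was at 0.26, Rps14 at 0.22, Rpl22 at 0.19, Rpl13a at 0.12, Rps27a at 0.60, Rpsa at 0.26, Rpl10 at 0.24, Rpl39 at 0.38 and Rps4x at 0.55. Of the most abundant members, Rps15 was at 0.49, Rpl41 at 0.39 and Rpl36 at 0.30. In the same fit, Rps15 was at -0.07, Rpl41 at -0.26, Rpl36 at -0.31 and Rps19 at -0.24.

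Splitting the members by subunit, the median log2 fold change was 0.74 for the 31 genes of the small subunit and 0.55 for the 47 tested genes of the large subunit and stalk. Without 21 mo replicate 3, these medians were 0.23 and 0.048. The ratio of large-subunit to small-subunit counts was 1.42 ± 0.0010 (SD, n = 3) in 18 mo, with single libraries at 1.415, 1.416 and 1.414. It was 1.408, 1.338 and 1.288 in 21 mo and 1.418, 1.396 and 1.405 in 21 mo/O304. Every 21 mo library lay below the 18 mo libraries, and again replicate 3 was farthest from them. The ratio was not tested, since it is a score over the members.

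The spread among members was wider in the older mice. Over the 78 members, the SD of the log2 level against the 18 mo mean was 0.15, 0.11 and 0.14 in the 18 mo libraries, 0.33, 0.39 and 0.56 in 21 mo and 0.30, 0.33 and 0.25 in 21 mo/O304. The 18 mo values are smaller in part by construction, because their own mean is the reference. In the 21 mo/O304 libraries, 27, 27 and 43 members lay above the 18 mo range, against 30%, 32.3% and 31.7% of all genes, and 34, 33 and 11 below it, against 30.4%, 32.5% and 31.3%. In replicates 1 and 2 of this group, the counts above the range were close to the shares over all genes, and those below it somewhat above them.

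All 6 older mice lay above all 18 mo mice for 21 members, against 5.07% of all genes, among them Rpl7, Rpl26, Rpl23a, Rps4x, Rps6, Rps12 and Rps24. Rpl7, for example, had 423 to 465 CPM in 18 mo, 612 to 1285 in 21 mo and 556 to 592 in 21 mo/O304, and a log2 fold change of 0.98 ± 0.268 (adjusted p = 0.0844) in 21 mo against 18 mo. That of Rpl26 was 0.96 and that of Rpl23a 0.85. These 3 genes were named after their values were seen. No member lay below all 18 mo mice in all 6, against 5.99% of all genes. Rps28 had 108 to 152 CPM in 18 mo, 81.1, 87.8 and 226 in 21 mo and 75.1, 85.4 and 105 in 21 mo/O304. Its log2 fold change of 21 mo against 18 mo was 0.10 with all libraries and -0.56 (adjusted p = 0.143) without 21 mo replicate 3, and that of Rps29 was 0.06 and -0.56 (adjusted p = 0.297). The values of both for age were chosen after they were seen.

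**Figure D4:**
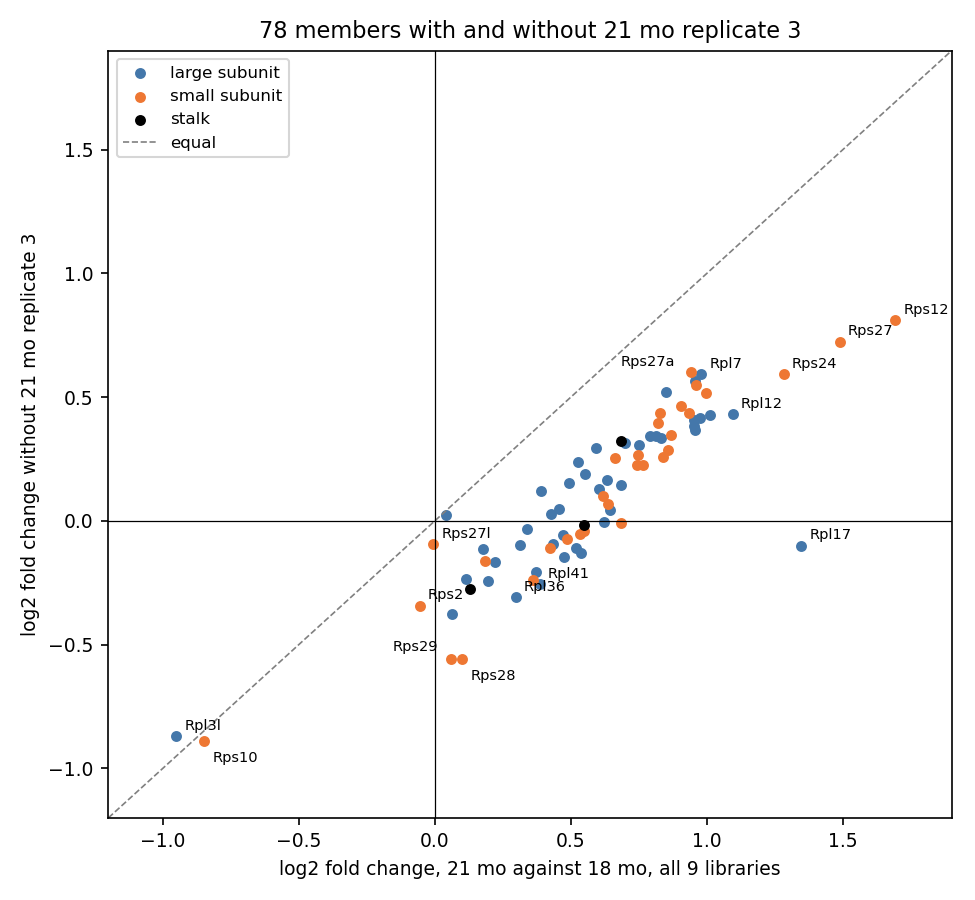
Fitted log2 fold change of 21 mo against 18 mo for the 78 tested members with all 9 libraries (x axis) and without 21 mo replicate 3 (y axis), by subunit, with a dashed line of equality. The median falls from 0.62 to 0.13 and the number of members above 0 from 74 to 46.

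Gene length was not used to choose the members and they are short, with a median of 1736.5 bases against 4337.5 for the protein-coding genes tested. The 39 members of at most 1754.5 bases had a median log2 level of -0.03, 0.11 and 1.26 against the 18 mo mean in 21 mo replicates 1, 2 and 3. The 39 longer members stood at 0.11, 0.35 and 1.28. Over all protein-coding genes tested, the 1475 of that length or shorter stood at -0.11, -0.18 and -0.03 and the longer ones at 0.02, 0.06 and 0.04. Shorter members and shorter genes in general were thus lower than longer ones in 21 mo replicates 1 and 2, by amounts of similar size. The part of length in the members' differences was not tested.

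The introns of many members carry small nucleolar RNAs (snoRNAs), which guide rRNA modification. By the annotated coordinates, 29 of the 80 members (36.2%) hosted 57 snoRNAs, against 360 of the 13916 tested protein-coding genes (2.59%). Other annotated genes of any kind overlapped 44 members, and protein-coding ones 17. Strand was not stated for the counting, so reads of overlapping genes cannot be separated here.

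With O304, 77 of the 78 tested members had a lower fitted level than in 21 mo and 1, Rpl3l, a higher one. The median log2 fold change was -0.62, a fold of 0.650, against -0.02 for all genes. No member and no gene passed an adjusted p of 0.05 (0% of all genes), and the smallest adjusted p of a member was 0.175. At an unadjusted p under 0.05, 21 members (26.9%) were lower, against 12.4% of all genes, and 1 was higher, against 8.27%. All 21 mo/O304 libraries lay below all 21 mo libraries for 15 members (19.2%), against 10.5% of all genes, and above them for 1, against 10.8%. This comparison shares the 21 mo libraries with the one for age, so the reversed sign of the medians is not a second observation.

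Without 21 mo replicate 3, the median was -0.12, 63 members were fitted lower and 15 higher, and 6 lower and 1 higher member remained at an unadjusted p under 0.05, against 6.95% and 7.12% of all genes. The 6 were Rpl7a, Rps12, Rps7, Rpl39, Rps15a and Rps26. Without 21 mo replicate 1, 38 members (48.7%) passed the adjusted threshold, 37 of them lower, as did 23.1% of all genes in that fit. At an unadjusted p under 0.05, leaving out 21 mo/O304 replicate 1, 2 or 3 gave 3, 4 or 5 lower members. The shares of all genes were 9.88%, 9.55% and 8.1%. Leaving out 18 mo replicate 1, 2 or 3 gave 9, 9 or 10 lower, against 11.4%, 11.1% and 11.5%. Leaving out 21 mo replicate 2 gave 40 lower, against 10.1%. In each of these fits 1 member was higher, against 4.21% to 6.82% of all genes.

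The largest fitted decreases with O304 were those of Rps12, Rpl7a, Rpl12, Rpl17 and Rps27. For Rps12 the log2 fold change was -1.31 ± 0.444 (adjusted p = 0.186), and -0.44 without 21 mo replicate 3. Rpl7a had 135, 80.2 and 85.4 CPM in 18 mo, 105, 102 and 197 in 21 mo and 59.9, 61.3 and 75.7 in 21 mo/O304. All O304 mice were below all others, with a log2 fold change against 21 mo of -1.04 ± 0.296 (adjusted p = 0.175), and of -0.65 without 21 mo replicate 3. The values of Rpl12, Rpl17 and Rps27 were -1.03, -0.95 and -0.91, and without that library -0.37, 0.49 and -0.15, so that of Rpl17 turned its sign. Rpl3l was higher in all O304 mice than in all 21 mo mice, with a log2 fold change of 1.27 ± 0.317 (adjusted p = 0.175), and 1.18 without 21 mo replicate 3. Rplp0 stood at -0.59, Rps6 at -0.63, Rps2 at -0.24 and Rps10 at -0.08.

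Against 18 mo, the 21 mo/O304 mice had a median log2 fold change of 0.03 over the members, with 41 fitted higher and 37 lower. No member passed an adjusted p of 0.05 (0% of all genes). At an unadjusted p under 0.05, 0 members were higher, against 4.33% of all genes, and 0 lower, against 5.33%. By non-overlap, 24 members (30.8%) were higher, against 13.2% of all genes, and 10 (12.8%) lower, against 13.3%. This test used 1 estimate of spread from all 9 libraries, 21 mo replicate 3 included. With only the 6 libraries compared, 18 members were higher at an unadjusted p under 0.05, against 9.43% of all genes in that fit, and 10 were lower, against 10.9%. The adjusted threshold was passed by 0 members and by 0.144% of all genes there.

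The largest fitted increases of 21 mo/O304 against 18 mo were those of Rps27 (0.58), Rps27a (0.52), Rps24 (0.42), Rpl17 (0.40) and Rps12 (0.38). The largest decreases were those of Rps10 (-0.93), Rpl7a (-0.61), Rps28 (-0.47), Rpl24 (-0.47) and Rps29 (-0.41). Values of Rps10, Rps27 and Rpl17 carry the uncertainty of their copies, and with copies added they were -0.06, 0.32 and 0.30.

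Of 7 tested genes of the ribosome or their copies that the symbol rule left out, 4 were fitted higher and 3 lower in 21 mo than in 18 mo. At an unadjusted p under 0.05, 2 were higher and 1 lower, against 14% and 12% of all genes. Their median log2 fold change was 0.33, and -0.06 without 21 mo replicate 3, so the list did not go 1 way. Rps3a1, a small-subunit protein, had 488, 432 and 498 CPM in 18 mo, 606, 720 and 1264 in 21 mo and 566, 567 and 615 in 21 mo/O304, with a log2 fold change of 0.87 (adjusted p = 0.101) in 21 mo against 18 mo. Rack1, a scaffold on the small subunit, stood at 0.83 (adjusted p = 0.124). Fau, which encodes a small-subunit protein fused to a ubiquitin-like domain, stood at 0.33.

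With all libraries, other gene lists of the translation machinery had smaller median log2 fold changes for age than the ribosomal proteins. Without 21 mo replicate 3 this order changed for some lists. The median was then 0.34 for other TOP mRNAs and 0.14 for initiation factors, against 0.13 for the ribosomal proteins. It stayed lower for elongation factors (0.051), rescue factors (0.058), ribosome biogenesis (0.029), RNA polymerase I (-0.017) and the control by mTORC1 and Myc (-0.17). The counts for each list compare 21 mo with 18 mo at an unadjusted p under 0.05. Of all genes, 14% were higher and 12% lower. Other TOP mRNAs had 4 of 7 genes higher and 0 lower, with a median log2 fold change of 0.53. Among them were Npm1, the nucleolar chaperone (0.80, adjusted p = 0.0697), Naca, which binds nascent chains (0.66), and Cct4, a chaperonin subunit (0.48). Elongation factors had 1 of 8 higher, Eef1b2 (0.70), and 1 lower, Eif5a (-0.40), and Eef1a1 stood at 0.61. Initiation factors had 8 of 30 higher and 0 lower, with a median of 0.22, and Eif3m and Eif3e, subunits of the same initiation complex, stood at 0.67 and 0.63. None of these genes passed the adjusted test.

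Ribosome biogenesis factors had 11 of 36 higher and 2 lower, against 14% and 12% of all genes, with a median of 0.14. Without 21 mo replicate 3 the median was 0.029. In that fit 7 were higher and 2 lower, against 10.02% and 12.1% of all genes. The values of single genes here are from the fit with all libraries. Of these, Nop58, a core snoRNP protein, stood at 0.72, and Gnl3, nucleostemin, at 0.64, while Nhp2, also of snoRNPs, stood at -0.52. RNA polymerase I genes had 1 of 11 higher, Taf1d (0.79), and 0 lower, and without 21 mo replicate 3 they had 0 higher and 0 lower. Genes of the control by mTORC1 and Myc had 1 of 17 higher and 5 lower, and 1 higher and 4 lower without that library. The 1 higher with all libraries was Myc. It had 5.20, 3.20 and 4.47 CPM in 18 mo, 10.03, 25.5 and 23.4 in 21 mo and 6.86, 6.62 and 7.70 in 21 mo/O304. All 21 mo mice lay above all others, with a log2 fold change of 2.19 (adjusted p = 0.0626) against 18 mo and of -1.48 for O304 against 21 mo. Akt1s1, an inhibitory subunit of mTORC1, stood at -0.58 (adjusted p = 0.0686).

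Ribosome rescue factors had 2 of 8 higher and 2 lower, with and without 21 mo replicate 3. Of all genes, 14% were higher and 12% lower with all libraries. Edf1, which senses collided ribosomes, stood at -0.61, and Pelo, which splits stalled ribosomes, at -0.72. The mitochondrial ribosomal proteins, which serve the separate ribosomes of mitochondria, had 2 of 77 higher and 34 lower, with a median log2 fold change of -0.31 in 21 mo against 18 mo, of 0.21 for O304 against 21 mo and of -0.16 for O304 against 18 mo. Proteasome subunits, a complex of similar breadth of expression, had 2 of 37 higher and 4 lower, with a median of -0.04. The median level of the mitochondrial ribosomal proteins against the 18 mo mean was -0.14, -0.29 and -0.44 in 21 mo replicates 1, 2 and 3, lowest in the library where the cytosolic ones were highest.

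**Figure D5:**
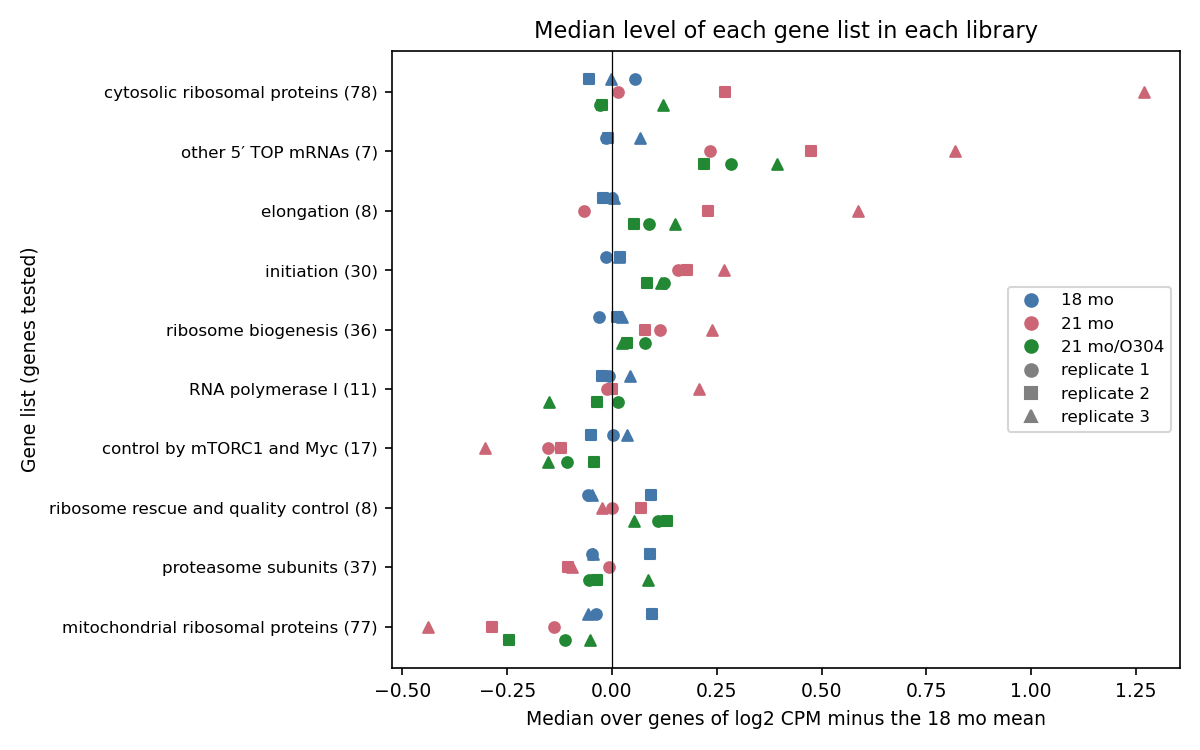
Median over the genes of each list of log2 CPM minus the 18 mo mean (x axis) in each of the 9 libraries, coloured by group and with the replicate number as marker shape. The cytosolic ribosomal proteins reach 1.27 in 21 mo replicate 3 and 0.27 in replicate 2, while the mitochondrial ribosomal proteins stand at -0.44 and -0.29 there.

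Pseudogenes named for the members, 290 in all, gave a further reading of the same transcripts or their copies. Of these, 124 had 0 counts in every library and 74 were tested. Their share of all counts was 0.102%, 0.103% and 0.101% in 18 mo, 0.1125%, 0.155% and 0.271% in 21 mo and 0.0963%, 0.0916% and 0.1155% in 21 mo/O304. The order of libraries in 21 mo was the same as for the members themselves.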

How the data were processed

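Total RNA of mouse kidney was sequenced in 9 libraries prepared with a NEBNext Ultra kit. According to the submitters' processing notes and the methods of the study, the authors aligned paired-end reads to GRCm38 (mm10) with HISAT2 2.0.5 and counted them per gene with featureCounts 1.5.0-p3; the deposited table holds raw counts and FPKM, with the fold changes and p-values of the authors' own DESeq2 1.20.0 comparisons, which were not used. Strand and the handling of multi-mapping reads in the counting are not given in the sources used here. Here, counts were tested with edgeR 4.0.16 (filterByExpr, minimum count 10 and total 15; TMM; quasi-likelihood test; 3 group means over all 9 libraries; Benjamini-Hochberg over 15902 genes) in R 4.3.3. CPM used TMM-scaled library sizes, and levels between genes were compared with the deposited FPKM only. Total counts were 15636378 to 18396725 per library. Each group held 3 mice, so the fit of 3 group means over all 9 libraries had 6 residual degrees of freedom. Fits with fewer libraries or with a replicate block had fewer. Alternatives used DESeq2 1.42.0, limma 3.58.1 and other edgeR settings, and the addition of named copies was chosen after seeing the data. The scripts were tested on simulated data, where DESeq2 made more false calls than edgeR. Those data were drawn with the spread that edgeR had estimated and held no library far from the others. They thus do not rate the DESeq2 calls given here. Named genes were the 5 largest increases and decreases of each comparison, members of fixed roles, the 5 highest and lowest by FPKM, and up to 3 genes of smallest p per list, apart from genes said to be chosen later. The members, lists and rules were chosen with earlier results of these data known. The sample labels give no pairing of mice by replicate number. Correlations of deviations ranged from -0.13 to 0.175 between same-numbered libraries and from -0.263 to 0.202 between differently numbered ones. These ranges cannot tell whether the numbers marked a shared batch. Sequences were not analysed here, and 1 gene outside the symbol rule is not reported here.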

Additional observations from a re-analysis of the deposited data

How the results depend on the processing

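No member passed the adjusted threshold for age or for O304 in edgeR with all libraries and the filter. DESeq2 called 20 and 3 (25.6% and 3.85% of members), against 7.29% and 3.36% of all genes. The 20 were all higher, and of the 3, 1 was higher and 2 were lower. Limma voom with quality weights gave 21 mo replicates 1, 2 and 3 weights of 0.2225, 9.115 and 0.1315. It called 43 and 32 (55.1% and 41% of members), near the 52.9% and 41.1% of all genes it called. Of the members called, 39 were higher and 4 lower for age, and 1 was higher and 31 lower for O304. At an unadjusted p under 0.05 in voom, 29.7% of all genes were higher and 29.2% lower for age. For O304 these shares were 25.5% and 24.7%. Without a filter 1 was called for age, against 2.04% of all genes. Leaving out 1 library gave 0 to 43 members for age and 0 to 38 for O304 against 21 mo. Of all genes, 0% to 25.4% and 0% to 23.1% passed. At an unadjusted p under 0.05, the count for age was 22 with only the 6 libraries compared and 16 to 57 on leaving out a library. Of all genes, 12.1% were higher and 8.54% lower with the 6 libraries. On leaving out a library it was 8.52% to 21.4% higher and 7.91% to 18.7% lower. For O304 against 21 mo the count was 41 in DESeq2, 57 without scaling factors, 45 without a filter and 4 with only the 6 libraries. It was 41 in voom, 8 in limma-trend on log2(FPKM + 1) and 4 to 65 on leaving out a library. In each of these, 1 member was higher and the others lower. Of all genes, the shares lower were 8.46%, 22.1%, 9.31%, 8.97%, 24.7%, 9.01% and 6.95% to 20.7% in the same order. The shares higher were 5.6%, 4.75%, 5.43%, 4.99%, 25.5%, 10.9% and 4.21% to 18.1%. For O304 against 18 mo the count was 1 without a filter, 28 with only the 6 libraries, 15 in voom and 0 to 15 on leaving out a library. Of all genes, 2.66% were higher and 2.96% lower without a filter, 9.43% and 10.9% with the 6 libraries and 10.7% and 11.5% in voom. On leaving out a library it was 2.5% to 7.1% higher and 2.97% to 8.18% lower. The replicate block, whose numbers are not known to pair the mice, gave 12 members for O304 against 21 mo. Of these 1 was higher and 11 lower, against 8.48% and 11% of all genes. Over single libraries left out, the members' median ranged from 0.13 to 0.87 for age and from -0.85 to -0.12 for O304 against 21 mo. Without scaling factors the median of all genes shifted by 0.14 for age and -0.21 for O304 against 21 mo, to 0.18 and -0.23, and that of the members was 0.82 and -0.88.

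Directions turned for single genes. For age, Rps27l was 0.038 with upper-quartile factors, 0.15 without scaling factors, 0.012 without a filter and 0.018 with the 6 libraries, and Rps2 was 0.12 without scaling factors. Rps28 and Rps29 were -0.043 and -0.061 with the replicate block, -0.40 and -0.45 in voom and -0.052 and -0.034 in limma-trend. In voom, Rplp2 was -0.20, Rpl11 -0.15, Rps19 -0.13, Rpl41 -0.024, Rpl36 -0.26 and, for O304 against 21 mo, Rpl17 0.22. With named copies added, Rps10 was 0.78. On leaving out a library, the range for age was -0.17 to 0.22 for Rpl24, -0.094 to 0.037 for Rps27l, -0.56 to 0.41 for Rps29, -0.56 to 0.37 for Rps28, -0.34 to 0.10 for Rps2, -0.10 to 1.79 for Rpl17, -0.019 to 0.80 for Rplp1, -0.27 to 0.32 for Rplp2, -0.24 to 0.41 for Rpl11, -0.24 to 0.62 for Rps19, -0.072 to 0.75 for Rps15, -0.26 to 0.69 for Rpl41 and -0.31 to 0.53 for Rpl36. For O304 against 21 mo it was -0.41 to 0.32 for Rps10, -1.38 to 0.49 for Rpl17 and -0.39 to 0.035 for Rps2. The causes were not tested. The planned count of pyrimidine tracts was not run. With 3 mice per group and 1 library far from the others, p-values rest on few mice; members with low counts, Rps10, Rpl24 and Rpl3l, are the least precise.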
